A study of Mus musculus with 6 samples.

Results

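The Ikaros family of zinc finger transcription factors has 5 members in the mouse, Ikzf1 (Ikaros), Ikzf2 (Helios), Ikzf3 (Aiolos), Ikzf4 (Eos) and Ikzf5 (Pegasus). They were taken by gene name from a table of raw read counts per Ensembl gene. All 5 of the 5 had a row among the 15445 genes of the table, and all 5 passed the filter on low counts that left 12987 genes for testing. RNA was sequenced from antiviral CD4+ T cells of C57BL/6 mice, on day 5 of an infection with lymphocytic choriomeningitis virus (LCMV). Transgenic T cells were sorted from spleen by flow cytometry on CD4, Thy1.1 and CD25 into 3 CD25-high and 3 CD25-low libraries. CD25 is the chain that raises the affinity of the interleukin-2 receptor. Both groups share the strain, the tissue, the infection, the day and the transgenic receptor, and differ in CD25. The labels name neither the transgene nor the limits of the CD25 gates, and do not say whether libraries came from separate animals. The p-values therefore rest on the spread between these libraries, some of which may be technical.

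Ikaros proteins bind DNA through zinc fingers near their amino terminus and pair with themselves or with each other through fingers at the carboxyl terminus. They act largely as repressors that bring chromatin complexes such as Mi-2/NuRD to their targets, and splice forms that lack the DNA-binding fingers can block the full-length partners. In mouse T cells Ikaros shapes development and effector choice, Helios and Eos are best known from regulatory T cells, and Aiolos is known from B cells and from follicular helper and Th17 cells. Pegasus is the most distant relative.

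Total counts ranged from 16787233 to 18847288 in CD25-high and from 18810599 to 23567066 in CD25-low libraries. Mitochondrial ribosomal RNA took 34.0%, 32.1% and 29.3% of the counts of the CD25-high libraries numbered 1 to 3, against 35.3%, 33.1% and 31.7% in those of CD25-low cells, a lower share in CD25-high cells within each number. With the mitochondrial and the 50 most abundant genes left out, Ikzf2 had a log2 fold change of -1.40 ± 0.22 (SE; edgeR adjusted p 0.0231) and Ikzf3 one of -0.72 ± 0.17 (0.121). Il2ra, which encodes CD25 and checks the labels of the sort, had between 432 and 1536 CPM (counts scaled to a common library total with TMM factors) in CD25-high and between 20.7 and 35.7 CPM in CD25-low libraries. All 10 defining markers of CD4+ T cells were detected in every library, with a summed level of 3045 to 3291 CPM in CD25-high and 3096 to 4147 CPM in CD25-low libraries. With the replicate number as a block, 2 of them, Cd3d and Cd3g, were called lower in CD25-high cells. Neither was called when pair 1 was left out of that fit (edgeR adjusted p 0.0729 and 0.0621). Both were called without pair 2 (0.00967 and 0.0114) or pair 3 (0.000638 and 0.00573). For each of the 2 genes every CD25-high library lay below every CD25-low library. Without the block their log2 fold changes were -0.95 ± 0.27 and -0.82 ± 0.27 (SE; edgeR adjusted p 0.204 and 0.279). Markers of other cells, apart from the regulatory T cell list, were low. Of 8 B cell markers, 3 had counts, summing to 3.61 to 10.4 CPM in CD25-high and 8.94 to 15.6 CPM in CD25-low libraries, and the other 5 were not analysed here. Myeloid markers summed to 24.1 to 81.2 CPM in CD25-high and 7.71 to 33.9 CPM in CD25-low libraries, mostly from the integrin gene Itgam, which was called higher with the block. Dendritic, NK, CD8 T and erythroid markers summed to at most 26.8 CPM in any CD25-high and 22.3 CPM in any CD25-low library, for each list. Regulatory T cell markers summed to 347 to 590 CPM in CD25-high and 377 to 554 CPM in CD25-low libraries, mostly from Ctla4 and Tigit. Of that list, Foxp3 had 2.29 to 5.78 CPM in CD25-high and 0.74 to 2.30 CPM in CD25-low libraries.

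Helios was the single member that passed the edgeR test without a block, and it was lower in CD25-high cells. Ikzf2 had 114, 93.9 and 88.2 CPM in the CD25-high libraries numbered 1 to 3, against 313, 197 and 272 CPM in those of CD25-low cells. Every CD25-high library lay below every CD25-low library, and the CD25-low libraries spread more widely than the CD25-high ones. The means were 98.8 ± 13.6 CPM in CD25-high against 261 ± 58.8 CPM in CD25-low libraries (SD, n = 3 each). Its log2 fold change was -1.40 ± 0.22 (SE; 95% interval -1.90 to -0.90), with an edgeR quasi-likelihood adjusted p of 0.0241. By p-value Ikzf2 ranked 45th of all tested genes. In bulk libraries, fewer cells that express a gene and less of its RNA per cell cannot be told apart.

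Aiolos also had lower values in every CD25-high library, by a smaller and more even step than Helios. Ikzf3 had 213, 245 and 237 CPM in the CD25-high libraries numbered 1 to 3, against 355, 423 and 370 CPM in those of CD25-low cells. The groups did not overlap. The means were 232 ± 16.7 CPM in CD25-high against 383 ± 35.8 CPM in CD25-low libraries (SD, n = 3 each), and the log2 fold change was -0.73 ± 0.18 (SE; 95% interval -1.12 to -0.33). This missed the threshold in the edgeR fit without a block (adjusted p 0.129, rank 209 by p-value) and passed with the replicate number as a block (-0.72 ± 0.14, adjusted p 0.0102). DESeq2 gave an adjusted p of 0.0152.

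**Figure D1:**
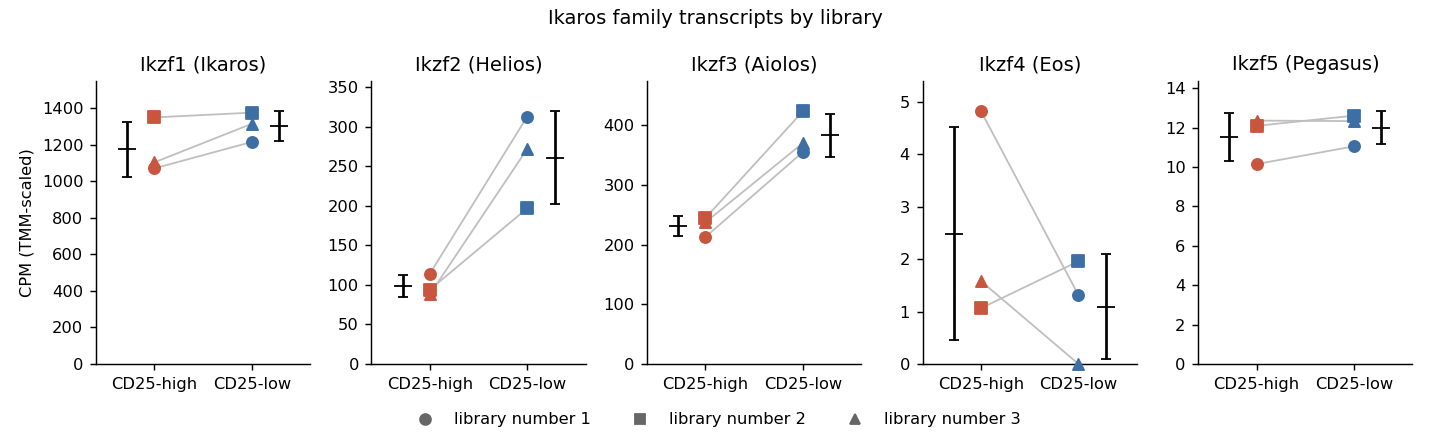
TMM-scaled CPM of the 5 members (y axis, from 0, a scale for each gene) in the 3 CD25-high and 3 CD25-low libraries (x axis). Symbols give the library number, grey lines join libraries with the same number, and black bars show the mean ± SD. Ikzf2 and Ikzf3 have no overlap between the groups, whereas the points of Ikzf1, Ikzf4 and Ikzf5 overlap.

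Ikaros itself, the founding member and a regulator of lymphoid development, was abundant in both groups. Ikzf1 had 1070, 1348 and 1103 CPM in the CD25-high libraries numbered 1 to 3, against 1214, 1375 and 1313 CPM in those of CD25-low cells. CD25-high library 2 lay above 2 of the CD25-low libraries, so the groups overlap. The log2 fold change of Ikzf1 was -0.15 ± 0.18 (SE; edgeR adjusted p 0.826). Its 95% interval runs from 0.686 to 1.19 times the CD25-low level.

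Pegasus, a member with low counts, had similar values in both groups. Ikzf5 had 10.1, 12.1 and 12.4 CPM in the CD25-high libraries numbered 1 to 3, against 11.05, 12.6 and 12.3 CPM in those of CD25-low cells. CD25-high library 1 was the lowest of the 6, and the groups overlap. The log2 fold change was -0.06 ± 0.29 (SE; edgeR adjusted p 0.966), and its 95% interval runs from -0.70 to 0.58 on the log2 scale. Most of the gene's exons cannot be assigned without a strand setting. Pstk, which encodes a kinase of selenocysteine synthesis, lies on the opposite strand and shares 4652 exonic bases with Ikzf5, or 81.3% of the Ikzf5 exon length. Pstk had 11.6 ± 3.29 CPM in CD25-high against 9.25 ± 0.95 CPM in CD25-low libraries (SD, n = 3 each), with a log2 fold change of 0.33 ± 0.34 (SE; edgeR adjusted p 0.790).

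Eos, a corepressor partner of Foxp3 in mouse regulatory T cells, had the lowest counts of the family, and none in CD25-low library 3. Ikzf4 had 85, 20 and 28 counts in the CD25-high libraries numbered 1 to 3, against 24, 46 and 0 counts in those of CD25-low cells. The largest count was that of CD25-high library 1, and the groups overlap. In CD25-low library 3, a count of 0 allows a level of up to 0.124 CPM, the value of 3 counts there. The log2 fold change was 1.19 ± 1.13 (SE; edgeR adjusted p 0.767). The value moved with the libraries that entered. It was 0.28 ± 1.29 without CD25-high library 1, 0.61 ± 0.82 without library 3 of CD25-low cells and 1.94 ± 1.41 without library 2 of CD25-low cells (SE).

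Within the family, 1 of 5 members was called lower by edgeR without the block, Ikzf2, against 0.501% of all tested genes. DESeq2, also without a block, called 2 of 5 lower, Ikzf2 and Ikzf3, against 1.87% of the genes to which it gave an adjusted p. With the replicate block 2 of 5 were called lower, Ikzf2 and Ikzf3, against 2.90% of all tested genes. No member was called higher in either edgeR fit, where the shares of all tested genes were 0.154% and 1.73%, and DESeq2 called none higher. Both Ikzf2 and Ikzf3 had no overlap between groups with CD25-high below, as had 9.54% of tested genes.

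**Figure D2:**
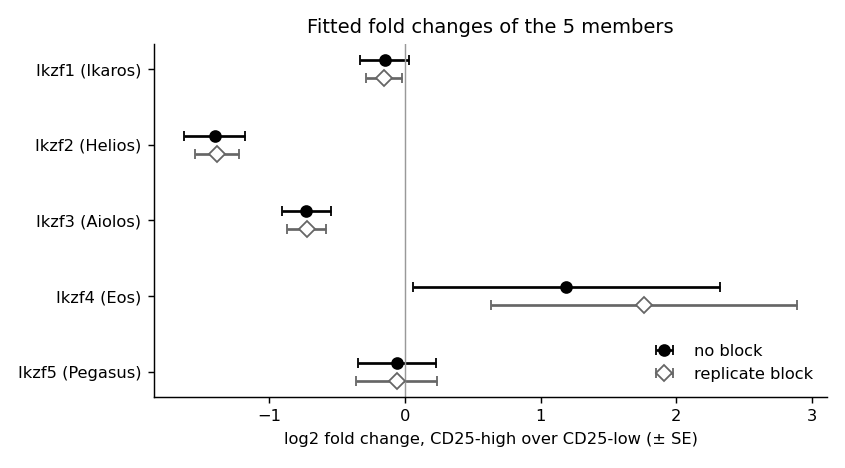
Fitted log2 fold change of CD25-high over CD25-low (x axis, ± SE) for each member (y axis), without a block (filled circles) and with the replicate number as a block (open diamonds). Ikzf2 lies at -1.40 and -1.38 and Ikzf3 at -0.73 and -0.72, while Ikzf4 has the widest error.

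The libraries of a group carry the numbers 1 to 3, and within each number Ikzf2 and Ikzf3 were lower in CD25-high cells. For Ikzf2 the log2 difference of CD25-high minus CD25-low was -1.45, -1.07 and -1.62 for numbers 1, 2 and 3. Pair 2, whose CD25-low library had the lowest Ikzf2 level of that group, had the smallest difference. For Ikzf3 the differences were -0.74, -0.79 and -0.64, a spread of 0.08 (SD over 3 pairs), against 0.29 for Ikzf2. Ikzf1 differed by -0.18, -0.03 and -0.25 and Ikzf5 by -0.12, -0.06 and 0.00. Ikzf4 went opposite ways, at 1.88 in pair 1 and -0.88 in pair 2, with no value for pair 3, where CD25-low had no count.

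Leaving out single libraries tested how much each call rests on one of them. Ikzf2 kept its call with library 1 of CD25-high cells (edgeR adjusted p 0.0197) or library 2 of CD25-low cells (0.0395) left out. It lost the call when CD25-high library 2 (0.114) or library 3 (0.193) was left out, and likewise for CD25-low library 1 (0.0671) and library 3 (0.112), while its log2 fold change stayed between -1.57 and -1.25. With the block, leaving out pair 1, 2 or 3 gave Ikzf2 adjusted p-values of 0.00740, 1.28e-08 and 0.000196. The same fits gave Ikzf3 adjusted p-values of 0.0371, 0.0407 and 0.0243. Few libraries are left in these fits, so their p-values lean on the spread shared over genes. For Ikzf2 the SE was 0.23 without pair 2 and 0.16 with all 3 pairs, yet the edgeR adjusted p was 1.28e-08 against 0.000302. These p-values therefore do not measure how firm a call is.

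**Figure D3:**
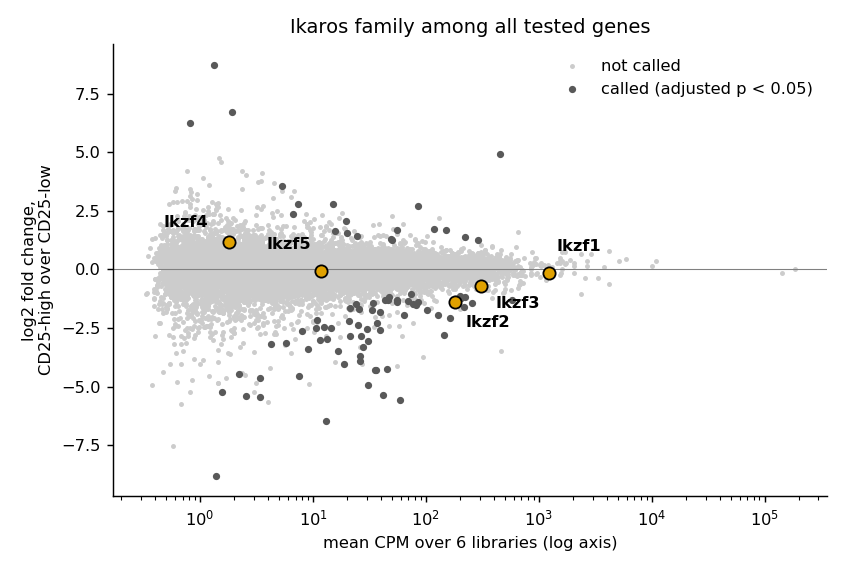
Log2 fold change of CD25-high over CD25-low (y axis) against the mean CPM over 6 libraries (x axis, log scale) for the 12987 tested genes. Dark points passed the edgeR adjusted p of 0.05, and the 5 members are marked in yellow. Ikzf2 sits among the called genes below 0, Ikzf3 just above it without a call, and Ikzf1 at the abundant end near 0.

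Levels of different genes were set side by side only per length, as CPM per kilobase of annotated exon. In each of the 6 libraries the order was Ikzf1, Ikzf3, Ikzf2, Ikzf5 and Ikzf4, from high to low. Ikzf1 had 203 ± 26.4 in CD25-high and 225 ± 14.0 CPM per kilobase in CD25-low cells (SD, n = 3 each). Ikzf3 followed with 26.4 ± 1.91 in CD25-high and 43.7 ± 4.09 in CD25-low cells, and Ikzf2 with 8.50 ± 1.17 in CD25-high and 22.4 ± 5.06 in CD25-low cells. With the length of the longest transcript in place of all exons, Ikzf3 had 50.3 ± 3.63 in CD25-high and 83.1 ± 7.77 CPM per kilobase in CD25-low cells. Ikzf5 had 2.02 ± 0.21 and Ikzf4 0.41 ± 0.34 in CD25-high cells, against 2.10 ± 0.15 for Ikzf5 and 0.18 ± 0.17 for Ikzf4 in CD25-low cells. Neighbours in this order did not overlap in either group. The level of Ikzf5 was divided by its full exon length, of which 81.3% is shared with Pstk. Its place in the order therefore depends on the strand setting of the counting, which is not known. Among all tested genes, Ikzf1 stood at percentile 97.8 per length in CD25-high and 98.0 in CD25-low cells. Ikzf2 stood at percentile 67.9 in CD25-high and 87.1 in CD25-low cells, and Ikzf3 at 89.1 in CD25-high and 93.9 in CD25-low cells.

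The make-up of the family was also compared within each library, which needs no scaling between libraries. Per 100 Ikzf1 counts of the same library, there were 10.7, 6.96 and 8.001 Ikzf2 counts in CD25-high libraries 1, 2 and 3, and 25.8, 14.3 and 20.7 in CD25-low libraries 1, 2 and 3. For Ikzf3 there were 19.9, 18.1 and 21.5 counts per 100 Ikzf1 counts in CD25-high libraries, and 29.2, 30.8 and 28.2 in CD25-low libraries. Both ratios were lower in each CD25-high library than in any CD25-low library, and no test was run on them. Of the summed level per length of the 5 members, Ikzf1 took 84.4% ± 1.34 in CD25-high and 76.7% ± 1.39 in CD25-low cells (SD, n = 3 each). Ikzf3 took 11.04% ± 0.81 in CD25-high and 14.9% ± 0.81 in CD25-low cells, and Ikzf2 3.58% ± 0.76 in CD25-high and 7.70% ± 2.05 in CD25-low cells. Per 100 Ikzf3 counts there were 53.7, 38.4 and 37.2 Ikzf2 counts in CD25-high libraries 1, 2 and 3, and 88.1, 46.5 and 73.5 in CD25-low libraries 1, 2 and 3. This ratio was lower in CD25-high cells within each number, while the groups overlap. Whether the Ikzf2 and Ikzf3 differences are unequal was not tested.

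**Figure D4:**
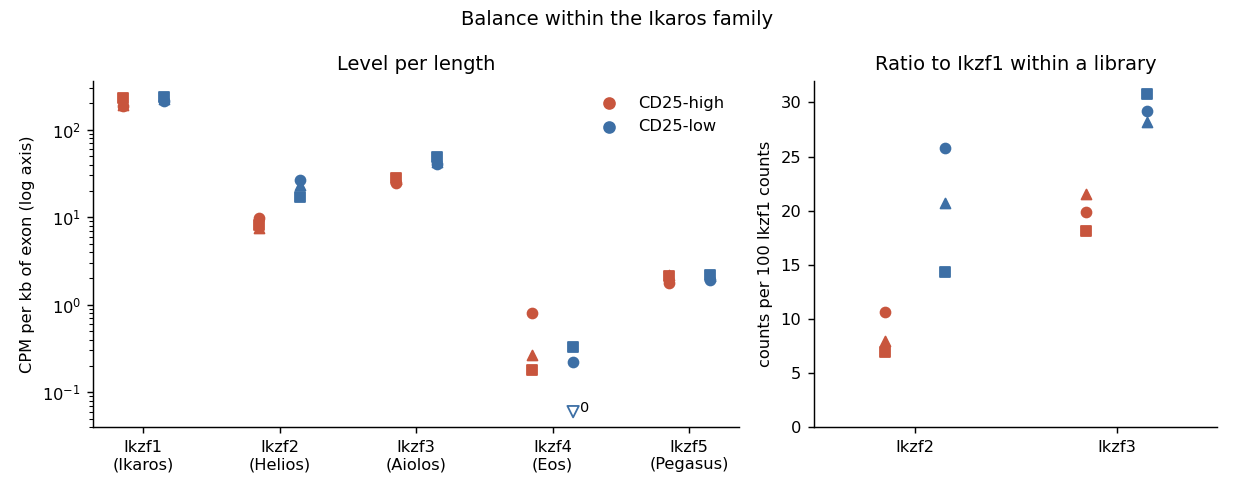
Left, CPM per kilobase of exon (y axis, log scale) of the 5 members, with CD25-high in red and CD25-low in blue, where symbols give the library number and an open triangle marks a count of 0. Right, counts of Ikzf2 and Ikzf3 per 100 Ikzf1 counts of the same library (y axis), which lie lower in every CD25-high library than in any CD25-low library.

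Helios and Aiolos are also expressed by other lymphocytes, so the markers of those cells are given here. Foxp3, which defines regulatory T cells, had 5.78, 2.29 and 3.84 CPM in the CD25-high libraries numbered 1 to 3, against 2.30, 1.92 and 0.74 CPM in those of CD25-low cells (log2 fold change 1.27 ± 0.61, SE). Other markers on that list went either way, with log2 fold changes of 0.91 ± 0.42 for Capg, 0.56 ± 1.06 for Il10, 0.04 ± 0.24 for Tigit, -0.10 ± 0.28 for Ctla4 and -0.20 ± 0.42 for Tnfrsf18 (SE), and none that was tested was called, with or without the block. Gpr83 and Lrrc32 were too low to be tested. Gpr83 had 0.06, 0 and 0.113 CPM in the CD25-high libraries numbered 1 to 3, against 1.80, 0.30 and 0 CPM in those of CD25-low cells. Lrrc32 had 0.40, 0.64 and 0.23 CPM in CD25-high libraries, against 0.44, 0.17 and 0 CPM in CD25-low libraries. The B cell marker Cd22 had 10.1, 3.94 and 1.80 CPM in the CD25-high libraries numbered 1 to 3, against 15.3, 7.71 and 8.23 CPM in those of CD25-low cells. It was lower in CD25-high cells within each number, as Ikzf2 and Ikzf3 were, and was not called (log2 fold change -0.97 ± 0.58, SE; edgeR adjusted p 0.588). Cd79b and Ebf1, which define B cells, were at or below 1.41 CPM in every library and too low to be tested. Cd79b went both ways within the numbers, with 0.28, 0 and 1.41 CPM in CD25-high against 0.05, 1.11 and 0.21 CPM in CD25-low libraries. Ebf1 was lower in CD25-high cells within each number, with 0, 0.05 and 0.39 CPM against 0.27, 0.13 and 0.70 CPM in CD25-low libraries. The part of other cells in the Ikzf2 and Ikzf3 differences was not tested.

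The partners of the family showed no called difference. Of 13 subunits of Mi-2/NuRD, the remodelling and deacetylase complex that Ikaros proteins join, 0 were called with edgeR with or without the block and 0 had an unadjusted p under 0.05. DESeq2 called 0 as well. Their median log2 fold change was 0.08, with a range of -0.37 to 0.41, against a median of 0.01 over all tested genes. Smallest in p were Gatad2a (140 ± 16.6 CPM in CD25-high against 110 ± 6.27 CPM in CD25-low libraries, SD, n = 3 each; edgeR adjusted p 0.549) and Mta1 (edgeR adjusted p 0.558). Of 8 other cofactors, among them Sin3, CtBP and Polycomb proteins, 0 were called in either edgeR fit or by DESeq2, 0 had an unadjusted p under 0.05, and the median was 0.15. The remodelling ATPase Smarca4 had a log2 fold change of 0.40 ± 0.20 and the Polycomb subunit Suz12 one of 0.26 ± 0.22 (SE), with edgeR adjusted p-values of 0.502 and 0.716.

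Genes that control how long Ikaros proteins last gave a like picture. The list holds the cereblon ubiquitin ligase, through which thalidomide-type drugs degrade IKZF1 and IKZF3 in human cells, and casein kinase 2 and protein phosphatase 1, which act on Ikaros. Of its 11 genes, 0 were called in either edgeR fit or by DESeq2, and 0 had an unadjusted p under 0.05, with a median log2 fold change of -0.07. The scaffold Cul4a had 64.3 ± 8.71 CPM in CD25-high against 86.0 ± 10.5 CPM in CD25-low libraries (SD, n = 3 each; edgeR adjusted p 0.498), and the phosphatase subunit Ppp1cb had a log2 fold change of 0.29 ± 0.19 (SE; edgeR adjusted p 0.630).

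Among 15 tested zinc finger factors of T cells outside the family, 0 were called with edgeR without the block, 0 with DESeq2, 2 had an unadjusted p under 0.05, and the median log2 fold change was -0.06. With the block 1 was higher, against 1.73% of tested genes. This was Zbtb32, a repressor induced in activated lymphocytes, with 25.9, 37.7 and 50.3 CPM in the CD25-high libraries numbered 1 to 3, against 11.2, 24.7 and 26.6 CPM in those of CD25-low cells. The groups overlap for Zbtb32 (log2 fold change 0.87 ± 0.36, SE; edgeR adjusted p 0.412, and 0.0380 with the block). The call with the block was lost when pair 1, 2 or 3 was left out (adjusted p 0.0926, 0.0788 and 0.134). Zbtb20 had 18.6 ± 5.71 CPM in CD25-high against 33.5 ± 8.71 CPM in CD25-low libraries (SD, n = 3 each; edgeR adjusted p 0.348, and 0.0535 with the block).

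Genes that Ikaros factors are known to regulate, or to work beside, in T cells moved both ways. The list was drawn up with earlier results of these data known. Its counts give no independent evidence of a direction, or of an excess of changed genes over the shares of all tested genes set beside them. Of 24 tested genes, 2 rose, Il2ra and Prdm1, and 1 fell, Il6st, against 0.154% and 0.501% of all tested genes, and the median log2 fold change was 0.21. An unadjusted p under 0.05 was found for 15 of the 24, against 1439 of the 12987 genes tested. Il2ra is the sort marker, so its place is no finding. With the block 5 rose (Il2ra, Prdm1, Il2rb, Gzmb and Prf1) and 5 fell (Il6st, Il6ra, Bcl6, Tcf7 and Cxcr5), against 1.73% and 2.90%. DESeq2 called 8 genes of the list. Leaving out CD25-high library 1 gave 7 calls, and leaving out library 2 or 3 of CD25-high or library 2 of CD25-low cells gave 1.

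Bcl6, Tcf7 and Cxcr5, known from follicular helper cells, were lower in every CD25-high library. Bcl6, their lineage-defining repressor, had 15.1, 2.02 and 1.07 CPM in the CD25-high libraries numbered 1 to 3, against 174, 67.3 and 71.3 CPM in those of CD25-low cells (log2 fold change -4.11 ± 0.85, SE; edgeR adjusted p 0.0715, and 2.03e-05 with the block). Tcf7, which encodes TCF1, had 173, 32.2 and 21.6 CPM in CD25-high libraries, against 879, 736 and 947 CPM in CD25-low libraries (edgeR adjusted p 0.0522, and 0.000142 with the block). The follicular homing receptor gene Cxcr5 had 11.8, 1.33 and 0.90 CPM in CD25-high libraries, against 67.9, 30.1 and 44.0 CPM in CD25-low libraries (edgeR adjusted p 0.127, and 0.000269 with the block). In all of these the groups did not overlap, and CD25-high library 1 stood nearest to the CD25-low libraries. Without that library, which was singled out by these values, the 3 genes passed with no block (edgeR adjusted p 0.000974 for Bcl6, 5.27e-05 for Tcf7 and 0.000640 for Cxcr5). Each of the 3 passed in only that 1 of the 6 fits with a library left out. Elsewhere the edgeR adjusted p reached 0.234 for Bcl6, 0.164 for Tcf7 and 0.376 for Cxcr5. Gzmb and Prf1, which encode granzyme B and perforin, were higher in CD25-high cells within each number. Gzmb had 480, 1246 and 1250 CPM in CD25-high libraries, against 69.9, 498 and 413 CPM in CD25-low libraries, where the groups overlap (edgeR adjusted p 0.348, and 0.000347 with the block). Prf1 had 3.23, 7.67 and 15.1 CPM in CD25-high libraries, against 0.11, 2.09 and 2.98 CPM in CD25-low libraries (edgeR adjusted p 0.356, and 0.0130 with the block).

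Receptors and messengers of interleukin-6 and interleukin-2 signalling stand on this list because Aiolos works with STAT3 in mouse follicular helper cells and has been linked to interleukin-2 sensitivity. Il6st, which encodes the shared chain gp130, had 36.6, 19.5 and 22.4 CPM in the CD25-high libraries numbered 1 to 3, against 133, 102 and 68.0 CPM in those of CD25-low cells. The groups did not overlap (log2 fold change -1.95 ± 0.32, SE; edgeR adjusted p 0.0257), and the call was lost when library 2 or 3 of CD25-high or library 1 or 2 of CD25-low cells was left out (highest adjusted p 0.193). Il6ra, the interleukin-6 binding chain, had 18.9 ± 4.80 CPM in CD25-high against 38.9 ± 10.01 CPM in CD25-low libraries (SD, n = 3 each; edgeR adjusted p 0.184, and 0.0448 with the block). Its call was lost again without pair 2 or 3 (0.356 and 0.108). Stat3 had 104 ± 10.6 CPM in CD25-high against 147 ± 15.7 CPM in CD25-low libraries (edgeR adjusted p 0.364, and 0.118 with the block). Stat5a, a messenger of interleukin-2 signalling, was also lower without overlap, with 45.5 ± 3.54 CPM in CD25-high against 69.4 ± 9.94 CPM in CD25-low libraries. It was not called (log2 fold change -0.61 ± 0.21, SE; edgeR adjusted p 0.308, and 0.0807 with the block). For Stat5b the groups overlap (-0.17 ± 0.21, SE; edgeR adjusted p 0.834). Il2rb, the beta chain of the interleukin-2 receptor, had 448, 540 and 551 CPM in the CD25-high libraries numbered 1 to 3, against 177, 244 and 372 CPM in those of CD25-low cells. Its groups did not overlap (log2 fold change 0.96 ± 0.26, SE; edgeR adjusted p 0.184, and 0.00327 with the block).

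Prdm1, which encodes the repressor Blimp-1, had 214, 226 and 251 CPM in the CD25-high libraries numbered 1 to 3, against 51.7, 64.6 and 97.4 CPM in those of CD25-low cells. Its direction was opposite to that of Ikzf2 and Ikzf3 in all 3 pairs. The call (edgeR adjusted p 0.0159) was lost when library 2 or 3 of CD25-high or library 2 of CD25-low cells was left out (highest adjusted p 0.121). Satb1, a chromatin organiser, had 224 ± 33.4 CPM in CD25-high against 354 ± 89.1 CPM in CD25-low libraries (SD, n = 3 each; edgeR adjusted p 0.315). The Notch genes passed in neither fit, with log2 fold changes of 0.22 ± 0.23 for Notch1, 1.38 ± 0.99 for Hes1 and 0.13 ± 0.30 for Dtx1 (SE; edgeR adjusted p 0.799, 0.668 and 0.918).

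**Figure D5:**
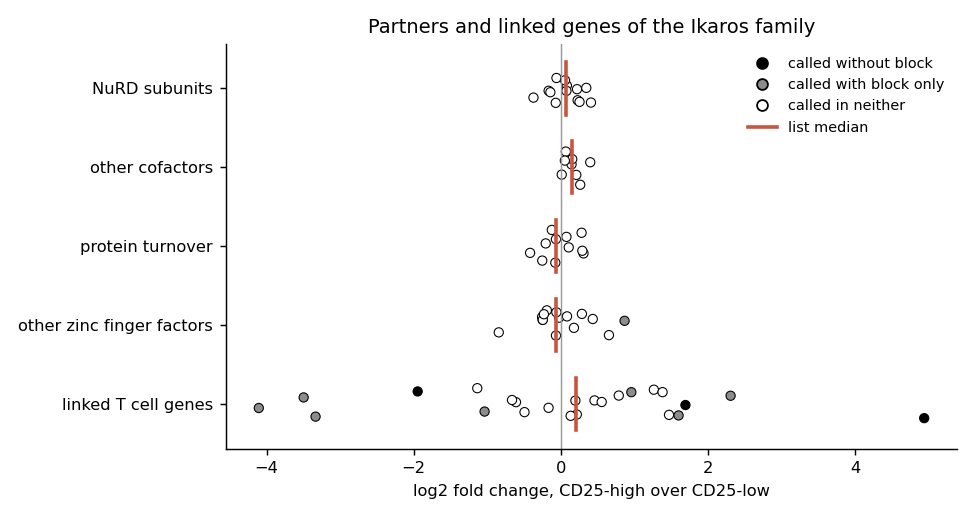
Log2 fold change of CD25-high over CD25-low (x axis) for the tested genes of 5 lists (y axis, with random vertical spread). Black points were called without the block, grey ones with the block only and white ones in neither fit, and red bars mark list medians. Partners and turnover genes lie between -0.42 and 0.41, while the linked genes spread from -4.11 to 4.94.

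The genes most like each member were ranked by Pearson correlation of log2 CPM over the 6 libraries, among 6792 genes, as a description. The group difference and the library scaling are shared by all these points. For Ikzf2 they were Mafk (r = 0.998), Mbtps1 (0.996) and Sh2b3 (0.992), of which Sh2b3, an adaptor that restrains cytokine signalling, was called lower (log2 fold change -2.45 ± 0.40, SE; edgeR adjusted p 0.0257). For Ikzf3 they were Ssh2 (r = 0.993), Pptc7 (0.993) and Clk1 (0.992). Ssh2 and Pptc7 were called lower (log2 fold changes -1.45 ± 0.19 and -1.05 ± 0.19, SE; edgeR adjusted p 0.00925 and 0.0428). Clk1 passed with the block (adjusted p 0.0104) and with DESeq2 (0.0181), but not in the edgeR fit without a block (0.130). With 1 library left out at a time, Pptc7 was called in none of the fits (adjusted p 0.0638 to 0.249), and Ssh2 lost its call when the third CD25-high library (0.0869) or the second of CD25-low cells (0.0669) was dropped. Sh2b3 was called in the fits that dropped library 1 of CD25-high cells (0.0163) or library 2 of CD25-low cells (0.0395), and in no other of these fits (up to 0.165). Ikzf1 was closest to Ppp1r13b, Cfap97 and Ccng2 (r = 0.992, 0.977 and 0.975) and Ikzf5 to Klf13, Rangap1 and Hsd11b1 (r = 0.995, 0.994 and 0.989), none of them called.

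The 5 genes lie on 4 chromosomes (mm10, GENCODE M21). Ikzf1 (ENSMUSG00000018654) lies on the plus strand of chromosome 11, between 11685003 and 11772926. Ikzf3 (ENSMUSG00000018168) spans 98464902 to 98546031 on the minus strand of the same chromosome. Ikzf2 (ENSMUSG00000025997) spans 69531214 to 69687245 on the minus strand of chromosome 1, and 144 of its exonic bases are shared with the antisense gene Gm29114, or 1.24% of its exon length. Ikzf4 (ENSMUSG00000002578) spans 128630843 to 128645991 on the minus strand of chromosome 10 and shares 37 exonic bases with Gm26876 on the opposite strand. Ikzf5 (ENSMUSG00000040167) spans 131388652 to 131410521 on the minus strand of chromosome 7. Ikzf1 and Ikzf3 shared no exonic base with an annotated neighbour.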

How the data were processed

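The authors deposited raw counts, whole numbers of reads per Ensembl gene and library. Libraries were made from total RNA by NuGEN Ovation amplification, per the labels' protocols. The submitters' processing notes name Novoalign, DESeq2, mm10 and hg19 without a role. The counter, its strand setting and how multiply mapped reads were handled are not stated in any source used here, so reads of similar family members or of overlapping genes could be misassigned. Names, exon lengths and coordinates come from GENCODE M21 (mm10), which named 15169 of 15445 rows.

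Counts were tested with edgeR 4.0.16 (R 4.3.3), quasi-likelihood F test, TMM factors, filterByExpr (minimum count 10, minimum total 15) and group as its single term. Benjamini-Hochberg adjustment ran over 12987 genes, with a threshold of 0.05. The SE was taken as |log2 fold change| divided by √F. Intervals and floors cover the fit or counting error only.

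Same-numbered libraries were checked for pairing over the 2000 most variable genes. Their deviations from the group means correlated at 0.34, 0.19 and 0.16, each over the limit of 0.1, and each library correlated best with its own number. Of the 6 unmatched combinations, at -0.26 to 0.13, CD25-high 2 with CD25-low 3 was over the limit too. The numbers were taken to pair libraries, which no label states. Alternatives were DESeq2 1.42.0, limma voom (3.58.1), other scalings and filters, thinning, the block and libraries left out. Block fits without a pair hold few libraries, and their p-values, whether a call is kept or lost, lean on the spread shared over genes. Members and lists were chosen with earlier results of these data known. Named genes are the members, called list genes and the 2 of smallest p per list, overlapping genes, the 3 most alike genes per member with a mean of at least 5 CPM, and Il2ra. With the block as call rule, Bcl6, Tcf7, Cxcr5, Gzmb and Prf1 were added. So were Il2rb, Il6ra, Stat3, Stat5a, Stat5b, Satb1, Notch1, Hes1, Dtx1, Itgam, Cd3d, Cd3g, Cd8b1, Foxp3 and other regulatory T cell markers, Cd22, Cd79b and Ebf1. All of these were added after their values were seen.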

Additional observations from a re-analysis of the deposited data

How the results depend on the processing

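Over all genes, 85 were called (20 higher and 65 lower in CD25-high cells). DESeq2 called 376 (116 higher, 260 lower) and the replicate block 601 (225 higher, 376 lower). With the block and without pair 1, 2 or 3 there were 461 (144 and 317), 486 (184 and 302) and 536 (233 and 303). Leaving out 1 library gave 22 to 130 genes, 2 to 23 higher and 20 to 107 lower. Of the family, 1 member was called, 2 with DESeq2, with the block and with the block without any pair, and 0 to 1 with a library left out. Ikzf3 passed with DESeq2 (log2 fold change -0.72), with the block (-0.72) and with the block without pair 1, 2 or 3 (-0.72, -0.70 and -0.76), and did not pass with limma voom (adjusted p 0.101). With a library left out, log2 fold changes were -1.57 to -1.25 for Ikzf2, -0.78 to -0.65 for Ikzf3, -0.25 to -0.08 for Ikzf1, 0.28 to 1.94 for Ikzf4 and -0.11 to 0.0275 for Ikzf5. Among genes named for likeness to Ikzf5, the same fits gave -0.60 to 0.41 for Hsd11b1, -0.50 to 0.10 for Klf13 and -0.31 to 0.0823 for Rangap1. They also turned the sign of Dtx1 (-0.26 to 0.34), Ctla4 (-0.39 to 0.16) and Tnfrsf18 (-0.58 to 0.0983), and with the block without pair 2 Dtx1 was at -0.26 and Ctla4 at 0.0220. The block changed no other call of a member. The cause of these changes was not tested.

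Under the 3 other scalings, 2 other filters, thinning and limma voom, Ikzf2 kept its direction and its call (adjusted p 0.0173 to 0.0270), as it did without the 50 most abundant and the mitochondrial genes. Ikzf1 is itself among those 50 and has no value there. For Ikzf4 limma voom gave a log2 fold change of 2.54, against 1.19 with edgeR. With the longest transcript in place of the exon length, the order of the levels was the same, Ikzf1 took 77.9% of the family in CD25-high and 68.8% in CD25-low cells, and Ikzf3 took 17.3% in CD25-high and 22.7% in CD25-low cells. The median gene lay within 0.03 of 0 (log2) in all 4 scalings. Ikzf4 had 0 to 85 counts per library, and the SE of its log2 fold change was 1.10 with counts thinned to the smallest library, against 1.13 at full depth.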
